A study of Sus scrofa with 9 samples.

Results

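Liver RNA of Wujin pigs, a breed from the plateau of southwest China, was compared between a high-iron diet and a control diet. The comparison used 6 of the 9 libraries of the series, chosen by diet alone. The high-iron group held libraries 2, 7 and 8 and the control group held libraries 4, 5 and 6, named here by the digit that ends each sample title. Both groups ate the same basic diet with iron glycinate mixed in, which added 200 mg/kg of iron for the high-iron group and 100 mg/kg for the control group. The piglets were 35 days old at the start, after which 5 days of adaptation came before 30 days on the test diets. The 3 libraries of the low-iron group, whose diet had 0 mg/kg of added iron, entered the fit for the shared spread. Their values are given for some genes only. Where they are not given, low-iron may differ from control as high-iron does. The labels do not give the sex of the animals, and each library comes from bulk liver, so a fall in the number of cells of a type and a fall in RNA per cell cannot be told apart.

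The liver takes up iron bound to transferrin, stores it in ferritin and releases it through ferroportin. Hepatocytes secrete hepcidin, which removes ferroportin from the cell surface, and they make hepcidin under control of the BMP and SMAD pathway. Kupffer cells, the resident macrophages of the liver, recycle iron from old red cells, and iron regulatory proteins bind hairpins called iron-responsive elements in the messenger RNA of ferritin, ferroportin and the transferrin receptor.

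Gene levels are FPKM, fragments per kilobase of transcript scaled to the mapped fragments of the library. The sum of FPKM was 416922 to 456420 per library, and 16235 to 17817 genes were above 0. The table has no counts, so the number of reads behind a value is unknown. By the read statistics of the study each high-iron library had more mapped reads than any control library, and the part of this difference in the calls of low genes was not tested. Fold changes are differences of log2(FPKM + 0.1), high-iron minus control, with SE as the standard error, and they understate the change of low genes. The hepatocyte marker ALB (albumin) measured 46231 to 74134 FPKM over the 9 libraries. The Y-linked gene EIF1AY was above 0 in control libraries 4 and 6 at 15.0 and 20.2 FPKM and in high-iron library 7 at 26.5 FPKM. It was listed at 0 in control library 5 and in high-iron libraries 2 and 8.

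Among 12584 tested genes, 197 differed by 2-fold or more with an unadjusted limma p under 0.05. Of these, 160 were higher and 37 were lower in the high-iron group. That is 1.57% of the tested genes, with 1.27% higher and 0.294% lower. After Benjamini-Hochberg adjustment 1 gene was under 0.05, and 704 genes had an unadjusted p under 0.05 at any fold change. The calls below therefore rest on unadjusted p-values, and the adjusted value is printed beside them. The median log2 fold change of all tested genes was 0.098, and 8179 genes (65.0%) were higher in the high-iron group. A scaling that brought this median to -0.013 (median of ratios) gave 98 higher and 52 lower calls, and quantile normalization gave 82 higher and 59 lower calls, so the excess of higher calls depended on the scaling.

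**Figure D1:**
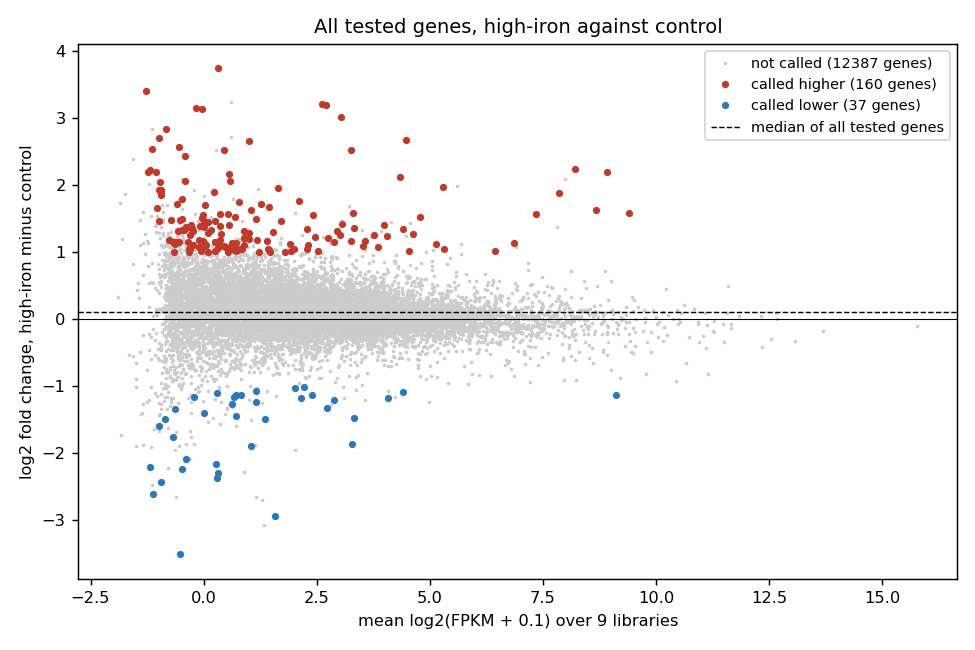
Log2 fold change (high-iron minus control, y axis) against mean log2(FPKM + 0.1) over 9 libraries (x axis) for 12584 genes. The 160 genes called higher are red and the 37 called lower are blue, and the dashed line is the median of all genes at 0.098. Many called genes sit at low levels: 109 of the 197 had a mean under 2 FPKM over the 6 libraries.

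Of the called genes, 121 have a gene symbol, 21 have only a LOC number and 55 are new transcripts without a name or position. The 3 high-iron values lay outside the range of the 3 control values for 142 of the 197 called genes. The called genes were chosen on these same values, so this count is no separate support for the calls. The share among all tested genes was 10.9%, with 9.14% higher and 1.76% lower in the high-iron group. With 3 libraries against 3 an exact permutation test of a single gene cannot go below p = 0.1, and every gene without overlap sits at that value.

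Iron handling genes were ordered by their role, beginning with uptake. Iron-responsive elements were searched for in pig transcripts as a stem of 5 paired bases with the loop CAGTGN, where N is A, C or T, and an unpaired C on the left. The loop is in capitals in the sequences below, read 5′ to 3′ from Sscrofa11.1 with NCBI gene models. They are shown because iron regulatory proteins are known to bind such hairpins in the messenger RNA of these genes when cells are short of iron. The first set lies in the leader before the coding sequence and the second downstream of TFRC.
FTH1 leader: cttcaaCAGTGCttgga
FTL leader: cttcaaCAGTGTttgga
SLC40A1 leader: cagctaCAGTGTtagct
ALAS2 leader: cgtcctCAGTGCagggc
TFRC element at 918 bases: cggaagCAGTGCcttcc
TFRC element at 1328 bases: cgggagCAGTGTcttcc
TFRC element at 1393 bases: cggagaCAGTGAtctcc
TFRC element at 1440 bases: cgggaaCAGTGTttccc

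The ferritin elements lie at chr2:9535181-9535197 on the plus strand (FTH1) and chr6:54231200-54231216 on the plus strand (FTL). Those of SLC40A1 and ALAS2 lie on the minus strand at chr15:94161666-94161682 and chrX:47895940-47895956. The 4 TFRC elements lie on the plus strand of chromosome 13 between 133998472 and 133999010. They start 918 to 1440 bases beyond the annotated end of the gene, whose model stops short of them. The same pattern occurred in the leader of 22 of 20652 genes (0.107%) and within 2000 bases downstream of 66 of 20633 genes (0.32%). A match is a description of the letters, not evidence of binding.

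TFRC, the transferrin receptor that takes up iron from blood, rose in the high-iron group. It measured 40.6, 15.9 and 18.5 FPKM in high-iron libraries 2, 7 and 8 and 6.51, 17.0 and 7.51 FPKM in control libraries 4, 5 and 6. High-iron library 7 lay below control library 5, so the groups overlap, and high-iron library 2 was the highest. The log2 fold change was 1.27 (SE 0.56, adjusted p = 0.892 by limma), a call that was lost in 9 of 16 alternative settings. It was lost without control library 4 (1.01) or 6 (1.11) and without high-iron library 2 (0.86) or 8 (1.42). The low-iron libraries measured 87.9, 129.8 and 28.6 FPKM, all above control, and the fold change between high-iron and low-iron was -1.59 (SE 0.56, adjusted p = 0.640 by limma). In the order of group means the control group was lowest, then high-iron, then low-iron, and neither step from control to high-iron nor from high-iron to low-iron passed the adjusted threshold.

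SLC40A1 (ferroportin, the iron exporter) did not reach a fold change of 2. It measured 207.5, 186.9 and 209.8 FPKM in the high-iron libraries and 160.3, 171.6 and 126.8 FPKM in the control libraries. All high-iron values lay above all control values. The log2 fold change was 0.41 (SE 0.18, adjusted p = 0.892 by limma). The ferritin genes did not pass the test. FTH1, the heavy chain of ferritin, measured 1449.6, 2094 and 1926 FPKM in the high-iron libraries against 1915, 1935 and 2667 FPKM in the control libraries, with a log2 fold change of -0.25. FTL, the light chain, had a log2 fold change of -0.34 (SE 0.27). Both ferritin genes were lowest in high-iron library 2 and their groups overlapped.

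**Figure D2:**
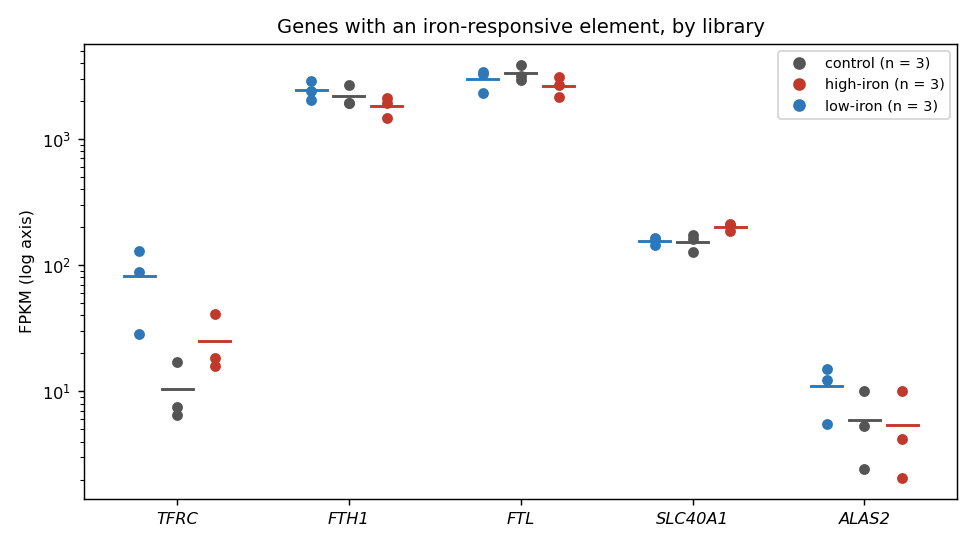
FPKM on a log axis (y) of 5 genes with an iron-responsive element (x), for the low-iron (blue), control (grey) and high-iron (red) libraries, 3 points each, with the group mean as a bar. TFRC is lowest in control and highest in low-iron, SLC40A1 sits between 186.9 and 209.8 FPKM in high-iron against 126.8 to 171.6 FPKM in control, and the ferritin genes overlap.

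Across the iron uptake list 12 genes were tested, 1 was called (TFRC) and 5 were higher, with a median log2 fold change of -0.03. In the list of iron storage, chaperones and export none of 9 genes was called, and the median was -0.10. FLVCR1, a haem exporter, measured 4.48, 4.98 and 5.64 FPKM against 8.81, 9.73 and 5.31 FPKM (log2 fold change -0.61, SE 0.27), and the groups overlapped. Of 9 haem synthesis genes, 7 were lower and none was called (median -0.19, which was -0.06 without high-iron library 2 and -0.31 without control library 4). UROS, an enzyme of the haem pathway, measured 12.9, 11.9 and 15.2 FPKM in the high-iron libraries and 17.4, 16.0 and 19.6 FPKM in the control libraries, with no overlap and a log2 fold change of -0.41. Over all tested genes the median was 0.098.

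HAMP, which encodes hepcidin, varied more within groups than between them. It measured 52.3, 6.87 and 21.8 FPKM in the high-iron libraries and 50.3, 42.0 and 16.2 FPKM in the control libraries. The log2 fold change was -0.70 (SE 1.14). Of 22 genes of hepcidin regulation, 1 was called, SMAD4. SMAD4, the shared partner of BMP and TGF-beta SMAD proteins, measured 10.5, 6.97 and 9.31 FPKM against 4.02, 3.24 and 4.06 FPKM. The 3 high-iron values lay above the control values, and the log2 fold change was 1.21 (SE 0.20, adjusted p = 0.328 by limma). The low-iron libraries were also high, at 7.97, 9.28 and 8.64 FPKM, and high-iron and low-iron differed by 0.03 on the log2 scale (SE 0.20). BMP6, the ligand that induces hepcidin, measured 4.75, 4.32 and 4.71 FPKM against 5.97, 5.11 and 3.48 FPKM, and the low-iron libraries measured 12.7, 7.47 and 6.48 FPKM. The upstream inhibitor TMPRSS6 had a log2 fold change of -0.12 (SE 0.20).

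The leading genes called higher, 12 with a symbol and no overlap between the groups, include genes of the cytoskeleton, the matrix and white blood cells. ABRACL, a regulator of the actin cytoskeleton, measured 4.10, 2.14 and 3.62 FPKM against 0.602, 0.630 and 0.646 FPKM. Its log2 fold change was 2.17 (SE 0.32, adjusted p = 0.172 by limma). The 3 control values were almost equal, and the low-iron libraries lay between, at 0.978, 1.10 and 1.76 FPKM. F13A1, the A chain of coagulation factor XIII, which crosslinks fibrin and is made by macrophages, measured 2.55, 2.48 and 1.92 FPKM against 0.860, 0.775 and 0.817 FPKM. Its log2 fold change was 1.39 (SE 0.27, adjusted p = 0.565 by limma). The low-iron libraries stayed in the control range or close to it, at 0.775, 1.01 and 0.785 FPKM, and the fold change against low-iron was 1.34 (adjusted p = 0.467 by limma).

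EMP3, a membrane protein, measured 3.48, 4.44 and 2.48 FPKM against 0.928, 1.31 and 1.21 FPKM, a log2 fold change of 1.49 (SE 0.27). The low-iron libraries of EMP3 were also above control, at 2.29, 2.93 and 2.14 FPKM. CAPG, which caps actin filaments, measured 3.64, 4.49 and 6.93 FPKM against 2.25, 2.60 and 2.08 FPKM. The low-iron libraries of CAPG measured 1.18, 1.94 and 1.47 FPKM, below the high-iron libraries by 1.63 on the log2 scale (SE 0.28, adjusted p = 0.409 by limma). CCR2, the chemokine receptor of inflammatory monocytes, measured 2.10, 3.03 and 2.96 FPKM against 1.47, 1.03 and 1.35 FPKM. Its log2 fold change was 1.01 against control and 1.26 against low-iron, whose libraries measured 0.838, 1.29 and 1.07 FPKM. GPNMB, a glycoprotein of macrophages, was the most abundant of the leading genes, at 28.0, 38.1 and 45.5 FPKM against 16.2, 17.7 and 20.6 FPKM.

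CD37, a tetraspanin of white blood cells, rose from 1.84 ± 0.0308 to 3.86 ± 0.884 FPKM (SD, n = 3). IL27RA, a cytokine receptor subunit, rose from 0.838 ± 0.0612 to 2.05 ± 0.705 FPKM (SD, n = 3), and high-iron minus low-iron was 0.08 on the log2 scale (SE 0.30). PFKFB3, an enzyme that drives glycolysis, rose from 0.490 ± 0.0967 to 1.36 ± 0.474 FPKM (SD, n = 3), and high-iron minus low-iron was -0.09 (SE 0.34). C1QTNF6, a secreted protein of the C1q family, rose from 0.188 ± 0.241 to 1.61 ± 0.798 FPKM (SD, n = 3), with 1 control library at 0. These are low levels, and the calls of CD37, CAPG, CCR2 and GPNMB were lost under median-of-ratios scaling. Without high-iron library 8 the log2 fold changes of CD37, IL27RA, CAPG, CCR2 and GPNMB fell short of a call, at 0.86, 0.96, 0.79, 0.94 and 0.85. Single control libraries or high-iron library 7 also ended the calls of CD37, CAPG, CCR2 and GPNMB, with values from 0.88 for CCR2 without control library 5 to 0.995 for GPNMB without the same library.

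**Figure D3:**
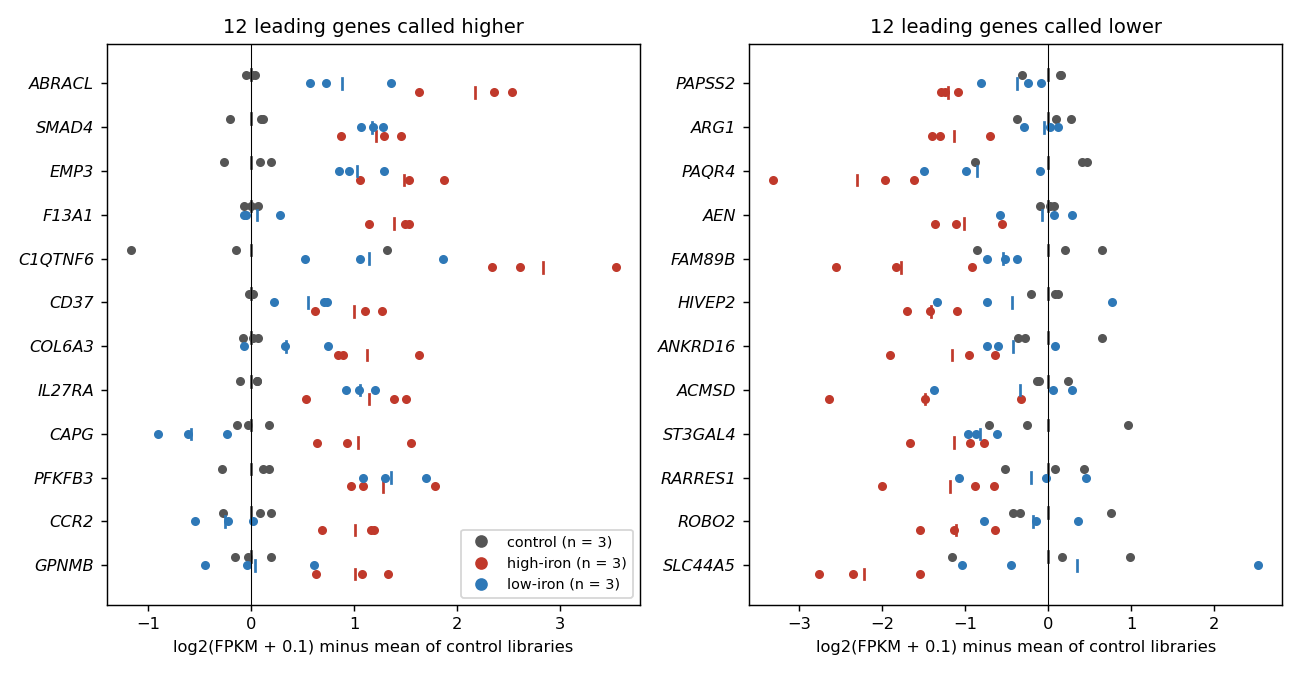
Level of the 12 leading genes called higher (left) and 12 called lower (right) in each library, as log2(FPKM + 0.1) minus the mean of the control libraries (x axis), with control in grey, high-iron in red and low-iron in blue, 3 points each, and group means as bars. Red and grey points do not overlap for any gene shown, by the rule that chose them. The low-iron points sit with the high-iron points for SMAD4, IL27RA and PFKFB3 and with or below the control points for F13A1, CAPG and CCR2.

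The leading genes called lower include 2 enzymes of the liver's main metabolic work. ARG1, arginase, which releases urea at the end of the urea cycle, measured 278.7, 453.9 and 298.2 FPKM in the high-iron libraries and 784.5, 566.2 and 890.1 FPKM in the control libraries. Every high-iron library lay below every control library, and group means were 343.6 ± 96.0 against 747.0 ± 165.2 FPKM (SD, n = 3). The log2 fold change was -1.13 (SE 0.26, adjusted p = 0.885 by limma). The low-iron libraries measured 746.0, 599.4 and 799.1 FPKM, within the control range, and the fold change of high-iron against low-iron was -1.08 (adjusted p = 0.539 by limma). The log2 fold change came just short of a 2-fold difference without control library 6 (-0.99), without high-iron library 2 (-0.996) and with EIF1AY as a covariate (-0.97).

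PAPSS2, which makes the sulfate donor PAPS, measured 4.26, 4.40 and 4.92 FPKM against 11.8, 11.7 and 8.49 FPKM. The log2 fold change was -1.21 (SE 0.23, adjusted p = 0.514 by limma), and the call held in 16 of 16 alternative settings. ACMSD, an enzyme of tryptophan breakdown, measured 2.36, 12.1 and 5.38 FPKM against 17.9, 14.1 and 13.9 FPKM, with a log2 fold change of -1.48. High-iron library 7 was close to control and library 2 far below, and without library 2 the log2 fold change was -0.90 and no longer called. The call of ACMSD was also lost without control library 4 (-1.36). PAQR4, a membrane protein of the progestin and adipoQ receptor family, fell from 2.70 ± 1.21 to 0.487 ± 0.298 FPKM (SD, n = 3), a call that also held in 16 of 16 settings. RARRES1, a gene induced by retinoic acid, measured 12.5, 5.71 and 14.7 FPKM against 16.1, 31.4 and 24.5 FPKM, and without high-iron library 7 its log2 fold change was -0.77 and no longer called. The call of RARRES1 was also lost without control library 5 (-0.96) or 6 (-1.14).

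The other leading genes called lower were at low levels. AEN, a nuclease induced by p53, measured 2.22, 2.67 and 3.96 FPKM against 6.18, 5.98 and 5.50 FPKM. HIVEP2, a zinc finger transcription factor, measured 0.472, 0.371 and 0.614 FPKM against 1.52, 1.56 and 1.23 FPKM. FAM89B, ANKRD16, ST3GAL4 (a sialyltransferase), ROBO2 (an axon guidance receptor) and SLC44A5 (a choline transporter-like protein) had log2 fold changes between -2.22 and -1.10. SLC44A5 was listed at 0 in high-iron library 2. Without high-iron library 2 the calls of AEN, ANKRD16, ST3GAL4, ROBO2 and SLC44A5 were lost, at -0.84, -0.80, -0.86, -0.88 and -1.95. Other single libraries ended these calls too. AEN lost its call without control library 4 or 5 or high-iron library 7, ANKRD16 without control library 6 (-0.84) and ST3GAL4 without control library 5 (-0.65). ROBO2 lost it without control library 4 (-0.72) or high-iron library 8, and SLC44A5 without control library 4 or 6 or high-iron library 8.

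Among genes with only a LOC number, LOC396781 had the strongest call of the comparison. It is annotated as an IgG heavy chain and lies on an unplaced scaffold, and the reads of such genes can be shared with near copies, so its level is uncertain. It measured 26.7, 18.5 and 36.4 FPKM against 3.75, 4.52 and 5.30 FPKM, and was the gene with an adjusted p under 0.05 (log2 fold change 2.52, SE 0.25, adjusted p = 0.0129 by limma). No gene was under 0.05 after adjustment in 6 of 16 alternative settings, which were no filter, the high-iron and control libraries only, and leaving out control library 5 or 6 or high-iron library 2 or 8. LOC110262115, a UDP-glucuronosyltransferase like UGT2B4, measured 12.4, 24.0 and 27.1 FPKM against 3.78, 3.88 and 0.892 FPKM, and low-iron libraries measured 29.8, 4.32 and 10.6 FPKM. LOC100155195, a guanylate-binding protein of the interferon response, measured 4.50, 3.63 and 4.86 FPKM against 2.16, 2.13 and 1.89 FPKM. LOC110260350, a glutathione S-transferase of the Mu class, was called lower, at 11, 5.58 and 1.99 FPKM against 23.9, 13.6 and 19.3 FPKM. The glucuronosyltransferase and glutathione transferase genes belong to families of near copies, so their reads may also be shared. The calls of LOC100155195 and LOC110260350 were lost without high-iron library 8, at 0.94 and -1.23. In all, leaving out any one of 3 and 4 libraries in turn ended these calls.

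Gene lists of pathways and cell types gave a broader view. Of 979 listed genes, 945 were matched and 899 were tested, and 34 were called (31 higher and 3 lower), against 1.57% of all tested genes. No gene was called in 23 of the 44 lists. The lists were written with results known and are described by counts and medians, and a list's median is read beside the 0.098 of all tested genes. A list's counts are read beside the shares over all tested genes, of which 65.0% were higher, 1.27% were called higher and 0.294% lower, and 9.14% lay higher and 1.76% lower without overlap.

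**Figure D4:**
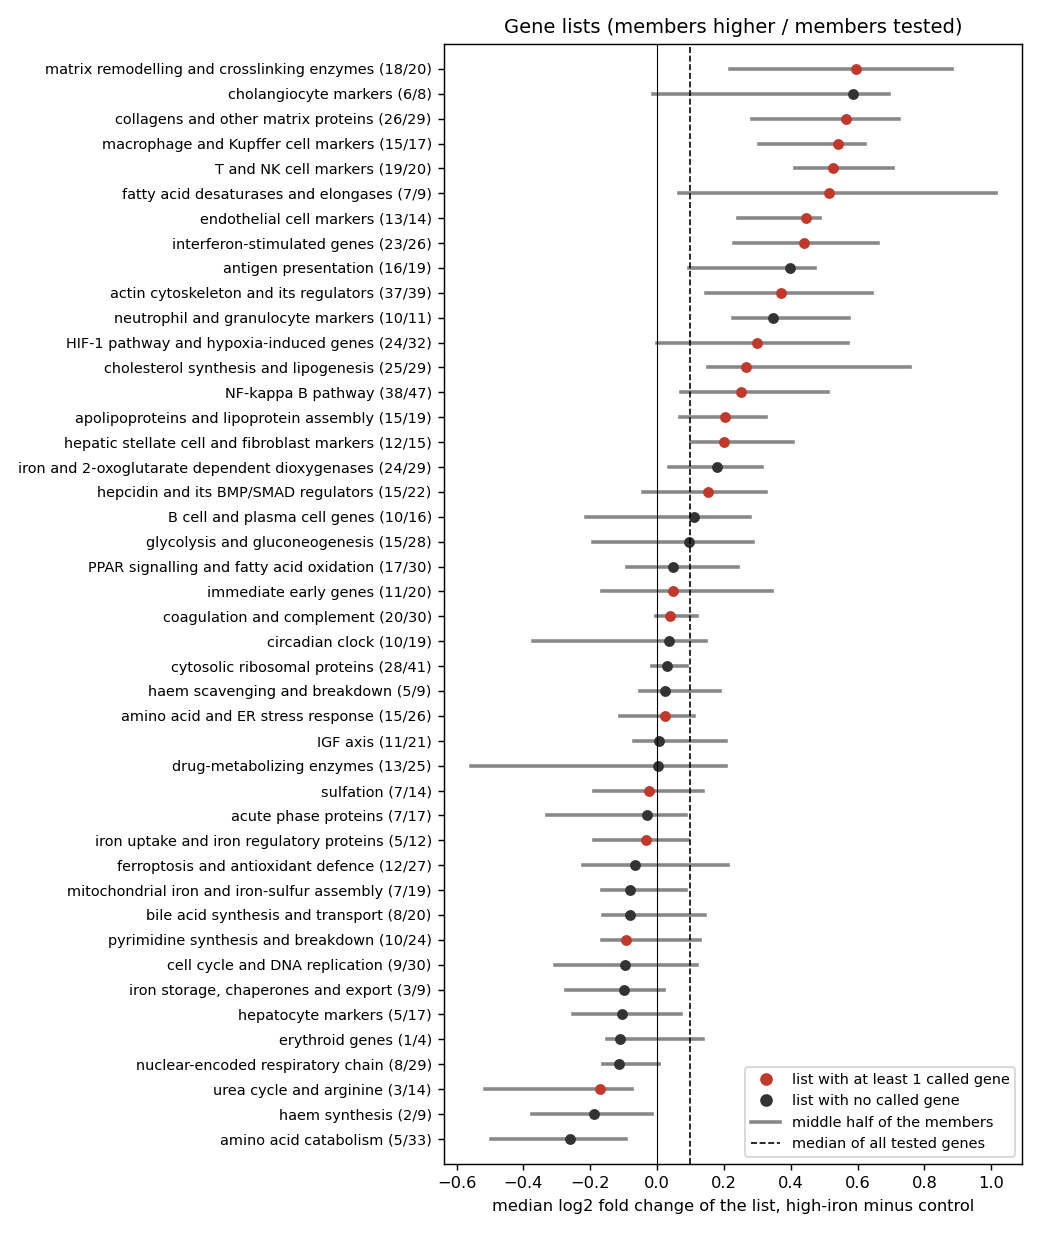
Median log2 fold change (x axis, high-iron minus control) of the tested members of 44 gene lists, with the interquartile range as a bar. Red points are lists with at least 1 called gene, and the dashed line is the median of all tested genes at 0.098. Both matrix lists and the macrophage, T cell, cholangiocyte and desaturase lists sit above 0.5, and amino acid catabolism, haem synthesis and urea cycle lists sit lowest.

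Genes of amino acid breakdown had the lowest median. Of 33 tested genes 28 were lower and none was called, and the median log2 fold change was -0.26. For 7 of them all high-iron values lay below all control values, against 1.76% of all tested genes. TAT, which opens tyrosine breakdown, measured 252.1, 243.5 and 179.4 FPKM against 331.6, 672.0 and 331.0 FPKM (log2 fold change -0.91, SE 0.37, adjusted p = 0.892 by limma). AASS, the first enzyme of lysine breakdown, measured 31.9, 44.0 and 57.1 FPKM against 94.2, 82.0 and 57.5 FPKM. HGD of tyrosine breakdown, SDS (serine dehydratase), MAT1A (which makes S-adenosylmethionine) and SHMT1 (serine hydroxymethyltransferase) were also without overlap, with log2 fold changes between -1.25 and -0.37.

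In the urea cycle list 11 of 14 genes were lower, with a median of -0.17, and ARG1 was the called gene. CPS1, which catalyses the first step of the cycle in mitochondria, measured 330.9, 448.6 and 512.5 FPKM against 780.1, 843.2 and 722.2 FPKM. No values overlapped, and the log2 fold change was -0.88 (SE 0.24, adjusted p = 0.885 by limma), short of a fold change of 2. ARG2, the mitochondrial arginase, measured 15.8, 11.2 and 12.7 FPKM against 30, 19.4 and 15.9 FPKM. The other steps of the cycle had smaller differences. ASS1 had a log2 fold change of -0.32 (SE 0.30), ASL of -0.21 (SE 0.25) and OTC of -0.08 (SE 0.22). The medians of amino acid catabolism and of the urea cycle were negative in each alternative setting, from -0.37 to -0.13 and from -0.29 to -0.08. Without high-iron library 2 they were -0.14 and -0.08.

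Collagens and other matrix proteins were higher as a list. Of 29 tested genes 26 were higher, 2 were called and 12 had no overlap, with a median log2 fold change of 0.56. COL6A3, a chain of the beaded filament collagen, measured 4.69, 4.87 and 8.19 FPKM against 2.42, 2.70 and 2.60 FPKM (log2 fold change 1.12, SE 0.27, adjusted p = 0.885 by limma). COL1A1, the main chain of type I collagen, measured 51.3, 30.6 and 107.5 FPKM against 22.3, 15.4 and 20.4 FPKM, and its partner chain COL1A2 measured 34.9, 20 and 40.3 FPKM against 16.9, 13.4 and 16.8 FPKM. COL4A1 of basement membranes measured 22.9, 23.1 and 17.7 FPKM against 12.9, 10.4 and 14.5 FPKM. High-iron library 8 was highest for COL1A1, COL1A2 and COL6A3, and without it the log2 fold change of COL6A3 was 0.87 and no longer called. The list median was 0.36 without high-iron library 2. The list mean, as log2 level minus control, was 0.66 in low-iron library 3, beside 0.72, 0.21 and 0.59 in high-iron libraries 2, 7 and 8. It was -0.09 and -0.13 in low-iron libraries 2 and 7. Low-iron libraries 2, 3 and 7 measured 14.7, 39.7 and 12.4 FPKM of COL1A1. The summed level of the list overlapped, at 3234.5 to 3808.3 FPKM in the high-iron and 3400 to 3949.3 FPKM in the control libraries.

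Enzymes and inhibitors that remodel the matrix were higher too, 18 of 20 genes with a median of 0.59 and 2 called. TIMP1, an inhibitor of matrix metalloproteinases, measured 4.37, 15.3 and 12.2 FPKM against 2.54, 1.74 and 4.45 FPKM, and high-iron library 2 lay inside the control range. Its log2 fold change was 1.75 (SE 0.55, adjusted p = 0.885 by limma). PCOLCE, which helps to trim procollagen, measured 12.2, 10.7 and 10.4 FPKM against 6.44, 7.14 and 2.03 FPKM. TIMP2 measured 16.6, 14.1 and 12.1 FPKM against 7.85, 5.78 and 9.73 FPKM, a log2 fold change of 0.89 that did not reach the fold required. The markers of hepatic stellate cells, which make collagen in the liver, were less uniform. ACTA2 measured 73.7, 71.3 and 22.5 FPKM against 32.9, 24.9 and 89.3 FPKM, PDGFRB 7.57, 7.64 and 7.24 FPKM against 7.48, 5.08 and 7.96 FPKM, and DES and LRAT overlapped as well. RGS5, a pericyte gene, was the called member, at 18.9, 17.0 and 12.9 FPKM against 9.71, 10.9 and 3.40 FPKM. Control library 6 was the lowest for PCOLCE and RGS5, and without it their log2 fold changes were 0.70 and 0.64 and not called. Low-iron minus control was 1.096 for PCOLCE and 0.963 for RGS5, beside 1.261 and 1.161 for high-iron minus control.

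Endothelial cell markers were higher in 13 of 14 genes, with a median of 0.45 and no overlap for 8. VWF, the von Willebrand factor, measured 6.76, 3.55 and 4.50 FPKM against 1.96, 0.689 and 2.06 FPKM. Its log2 fold change was 1.68 (SE 0.52, adjusted p = 0.885 by limma), and the call held in 16 of 16 settings. Low-iron libraries 2, 3 and 7 measured 2.31, 5.72 and 1.35 FPKM of VWF. PECAM1, CDH5, ENG and STAB1 had log2 fold changes between 0.46 and 0.53, none of them called. STAB2 and LYVE1 of sinusoidal endothelium had log2 fold changes of 0.42 and 0.50, also not called.

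Macrophage and Kupffer cell markers were higher in 15 of 17 genes, with a median of 0.54 and no overlap for 9. CLEC4F, a lectin of Kupffer cells, measured 31.7, 29.9 and 48.0 FPKM against 9.69, 28.3 and 9.95 FPKM. Control library 5 was near the high-iron libraries, but the values did not overlap, and the log2 fold change was 1.35 (SE 0.40, adjusted p = 0.885 by limma). CD163, the scavenger receptor for haemoglobin, measured 109.2, 96.6 and 100.7 FPKM against 66.2, 67.6 and 72.3 FPKM, with a log2 fold change of 0.57 (SE 0.17). CSF1R, CD68, VSIG4, C1QB and TYROBP were also without overlap, with log2 fold changes between 0.54 and 0.85. CD5L and MARCO were not higher, with log2 fold changes of -0.22 and 0.00. LYZ (lysozyme) was called but was listed at 0 in control libraries 4 and 5 and measured 0.287 FPKM in high-iron library 7, and its call was lost without any one of control libraries 4 and 5 and high-iron libraries 2 and 8, at 2.45 to 2.50.

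T and NK cell markers were higher in 19 of 20 genes, with a median of 0.53 and 2 called. CD8A measured 3.94, 4.71 and 8.60 FPKM against 3.10, 3.58 and 1.67 FPKM, a log2 fold change of 1.01 (SE 0.34) that was 0.68 and not called without high-iron library 8 and 0.69 without control library 6. A gene record of GZMA (granzyme A), a protease of cytotoxic cells, measured 0.956, 0.647 and 1.43 FPKM against 0.386, 0.143 and 0.364 FPKM. The low-iron libraries of GZMA were also above control, at 0.669, 0.772 and 0.812 FPKM. High-iron library 8 was highest in each of CD8A, CD3D, CD3E and GZMA, and without it the list median was 0.34. B cell and plasma cell genes did not form a list with one direction: 10 of 16 were higher, none was called, and the median was 0.11. CD79A, CD79B and MS4A1 lay between 0.15 and 2.50 FPKM in the 6 libraries and overlapped. The list median was -0.09 under quantile normalization, -0.16 without control library 5 and -0.15 without high-iron library 8.

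Defining markers of other cell types were measured as a check of the tissue. Hepatocyte markers were lower in 12 of 17 genes with a median of -0.10, but under quantile normalization and under array quality weights 8 of 17 were higher and the median was 0.00. Cholangiocyte markers were higher in 6 of 8 genes with none called, and their median of 0.58 was 0.14 without control library 5 and 0.10 under array quality weights. The summed level of hepatocyte markers was 71734 to 86136 FPKM in the high-iron libraries and 76817 to 96824 FPKM in the control libraries. The summed levels of macrophage markers were 1447 to 1711 FPKM and 1113 to 1424 FPKM, of endothelial markers 402.8 to 484.0 FPKM and 329.5 to 380.9 FPKM, and of T and NK cell markers 75.8 to 124.1 FPKM and 52.6 to 71.6 FPKM in the high-iron and control libraries. The neutrophil genes S100A8 and MPO were under the filter, and 10 of 11 neutrophil list genes were higher with none called. The red cell gene HBB measured 828.1, 527.2 and 348.5 FPKM against 208.8, 671.1 and 1434 FPKM, and GATA1, which directs red cell formation, was at most 0.101 FPKM in any library. Whether shares of cell types differ between the groups was not tested.

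**Figure D5:**
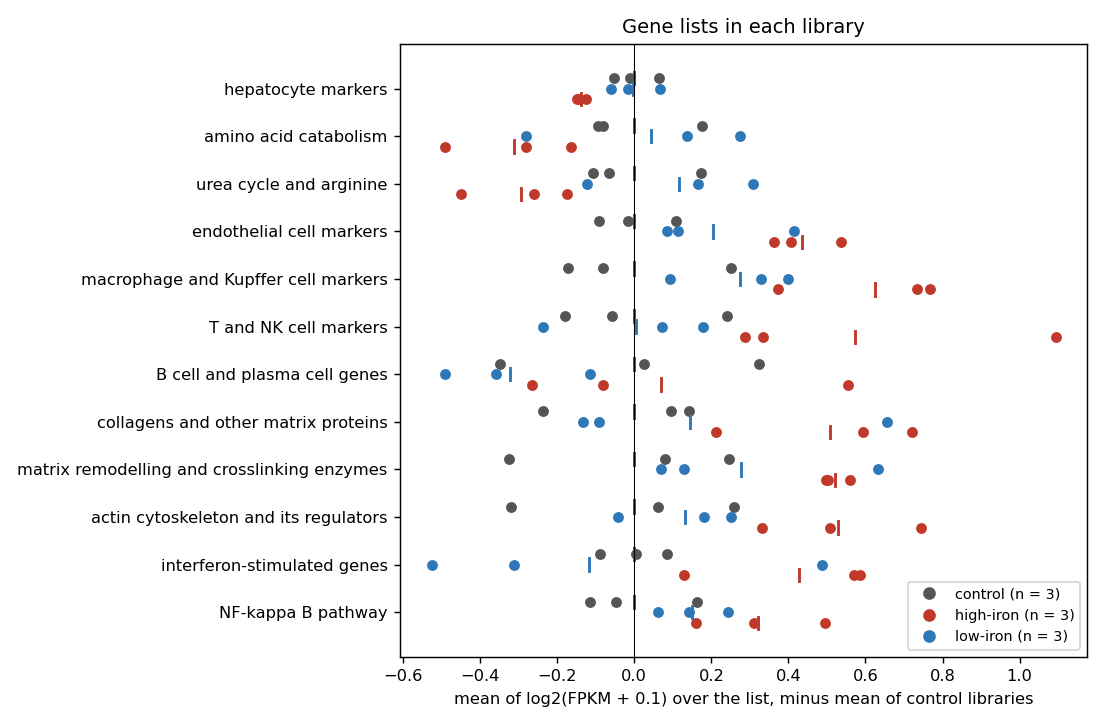
Mean log2(FPKM + 0.1) of 12 gene lists in each library, minus the mean of the control libraries (x axis), for control (grey), high-iron (red) and low-iron (blue), 3 points each, with group means as bars. High-iron libraries lie to the right of all control libraries for the endothelial, macrophage, T and NK cell, collagen, matrix remodelling, actin and interferon lists and to the left of all control libraries for hepatocyte markers, amino acid catabolism and the urea cycle. Low-iron library 3 lies within the high-iron range for the collagen, endothelial, macrophage, interferon, NF-kappa B and amino acid catabolism lists. For the matrix remodelling list it lies above that range. For the hepatocyte, urea cycle, T and NK cell, B cell and actin lists it lies outside the high-iron range on the other side or nearer to control.

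A list of actin cytoskeleton genes that also holds annexins, S100 proteins, galectins and EMP3 had 37 of 39 genes higher and a median of 0.37. The 5 called members were ABRACL and CAPG, which act on actin, and EMP3, S100A6 and LGALS1, which are not parts of the actin cytoskeleton. The list was written with the calls known, so its called members do not stand for an actin theme. S100A6, a calcium binding protein, measured 2.05, 5.93 and 3.30 FPKM against 1.20, 0 and 1.67 FPKM. Its log2 fold change of 2.53 was 1.22 without control library 5, and the call was lost without high-iron library 7 (2.15, SE 1.01). LGALS1 (galectin 1) measured 11, 17.3 and 10.9 FPKM against 5.59, 1.62 and 14.2 FPKM, and its groups overlapped. Its call was lost without any one of 5 libraries, control 4 and 5 and high-iron 2, 7 and 8. The log2 fold change was 0.51 without control library 5. Control library 5 was the lowest control library for this list, as for the collagen and remodelling lists, and without it the actin median was 0.25, the collagen median 0.31 and the remodelling median 0.47. The actin median was also 0.25 without high-iron library 7. VIM, the intermediate filament of mesenchymal cells, measured 25.6, 41.8 and 32.3 FPKM against 19.6, 12.7 and 25.8 FPKM.

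Of 47 NF-kappa B pathway genes 38 were higher, 4 were called and 12 had no overlap, with a median of 0.25, where 65.0% of all tested genes were higher, 1.27% were called higher and 9.14% lay higher without overlap. The called genes were CCL19, a chemokine that guides lymphocytes, TNFSF13B, the B cell survival factor BAFF, MALT1, a protease of lymphocyte signalling, and BCL2, an inhibitor of cell death. CCL19 measured 14.6, 17.2 and 46.6 FPKM against 11.7, 8.56 and 12.1 FPKM, with high-iron library 8 far above the others. Without that library the log2 fold change was 0.56 and not called. The call of CCL19 was also lost without control library 5 (0.92) and under median-of-ratios scaling. TNFSF13B measured 1.89, 1.29 and 2.27 FPKM against 1.13, 0.846 and 0.447 FPKM. The calls of TNFSF13B, MALT1 and BCL2 were lost without control library 6 (0.80), control library 5 (0.81) and high-iron library 7 (0.86) in turn. TNFSF13B was also not called without high-iron library 8 (0.95), nor BCL2 without control library 6 (0.93) or high-iron library 8 (1.03). The transcription factor subunits themselves had small differences, with log2 fold changes of 0.08 for NFKB1 (SE 0.19) and -0.03 for RELA (SE 0.20).

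Interferon-stimulated genes were higher in 23 of 26 members, with a median of 0.44, 1 called and 9 without overlap. The summed level of this list overlapped, at 493.6 to 936.0 FPKM in the high-iron and 465.9 to 991.4 FPKM in the control libraries. ISG15, a ubiquitin-like modifier, measured 10.8, 24.8 and 18.5 FPKM against 6.59, 7.19 and 9.01 FPKM (log2 fold change 1.17, SE 0.50, adjusted p = 0.892 by limma). IFIT3, another member of the list, measured 13.8, 15.7 and 15.6 FPKM against 8.27, 8.93 and 11.6 FPKM. The call of ISG15 was lost without any one of 5 libraries, at 0.90 to 1.30. High-iron library 2 had the lowest list level of the 3 high-iron libraries. In the low-iron group this list split, with libraries 2 and 7 below control and library 3 above. None of 19 antigen presentation genes was called, and 16 were higher, with a median of 0.40 that was 0.16 without control library 5 and also 0.16 without high-iron library 8.

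Of 32 HIF-1 pathway and hypoxia-induced genes 24 were higher, a share not far from the 65.0% of all tested genes, and TIMP1, BCL2 and PFKFB3 were called, the first 2 also being members of the lists above. The list median was 0.30, and 6 genes lay higher and 0 lower without overlap, against 9.14% and 1.76% of all tested genes. HIF1A itself measured 13.5, 12.7 and 13.3 FPKM against 11.4, 11.2 and 8.40 FPKM without overlap, with a log2 fold change of 0.36 (SE 0.21). NDRG1, a stress-induced gene, measured 2.47, 3.37 and 2.31 FPKM against 1.97, 1.14 and 1.54 FPKM. The classical targets VEGFA and SLC2A1 differed in direction, at 0.13 (SE 0.25) and -0.40 (SE 0.25) on the log2 scale. EPO was listed at 0 in all 6 libraries.

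Genes of cholesterol synthesis and lipogenesis were higher in 25 of 29 members, with a median of 0.26 and 2 called. No member lay without overlap in either direction, against 9.14% higher and 1.76% lower of all tested genes. SQLE, squalene epoxidase, measured 6.79, 52.4 and 12.3 FPKM against 3.15, 9.54 and 5.25 FPKM, and MSMO1, a later sterol enzyme, measured 107.3, 278.1 and 132.6 FPKM against 42.9, 142.1 and 61.0 FPKM. High-iron library 7 stood far above the others: HMGCS1 measured 110.1 FPKM there and 8.27 and 12.8 FPKM in libraries 2 and 8. Without library 7 the list had no called gene and a median of 0.10, while without control library 5 it had 4 called genes and a median of 0.56. For SQLE and MSMO1 the groups overlapped, with high-iron library 2 below control library 5. Their calls were also lost without control library 4 (1.20 and 0.76) or 6 (1.56 and 1.02). The desaturases FADS1 and FADS2 were called, with 39.1, 30.9 and 49.1 FPKM against 10.5, 41.0 and 13.2 FPKM for FADS1, and their groups overlapped because control library 5 was high. Without control library 4 the log2 fold changes of FADS1 and FADS2 were 0.74 and 0.54 and not called. FADS1 was also not called without control library 6 or high-iron library 2 or 8, nor FADS2 without high-iron library 8. Low-iron minus control was 1.775 for FADS1 and 1.263 for FADS2, beside 1.122 and 1.015 for high-iron minus control.

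The sterol regulatory sequence TCACNCCAC was searched on both strands in the 300 bases before each gene start, since SQLE is a textbook target of SREBP2, a transcription factor that is activated when sterols are low. The sequence occurred in the window of 189 of 20652 genes (0.915%), in 4 of 39 windows of the 2 lipid lists, and in 2 of 121 windows of genes called higher, SQLE and TFRC.

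Other lists had medians near 0 that changed sign between alternatives. Cytosolic ribosomal proteins had a median of 0.03 with none of 41 called, PPAR signalling and fatty acid oxidation 0.05 with none of 30, and ferroptosis and antioxidant defence -0.07 with none of 27. The ribosomal median ran from -0.16 without control library 5 to 0.26 without control library 6, the PPAR median from -0.13 without high-iron library 8 to 0.25 under array quality weights, and the ferroptosis median was 0.11 without high-iron library 2. In the ferroptosis list GPX3, a plasma glutathione peroxidase, measured 77.0, 70.6 and 115.8 FPKM against 175.3, 151.7 and 138.2 FPKM without overlap, and NQO1 had a log2 fold change of -0.88 (SE 0.45). Nuclear-encoded respiratory chain genes were lower in 21 of 29 members with a median of -0.11, and none was called. Relative to all tested genes that median was -0.21, beside 0.20 for the HIF-1 list and 0.15 for the NF-kappa B list, and it was 0.05 before this subtraction without high-iron library 2. The called genes of other lists were KLF4 of the immediate early genes, ABCG1 of lipoprotein assembly, VLDLR, MBL2 and DHODH. DHODH, a mitochondrial enzyme of pyrimidine synthesis, was lower, at 6.68, 1.43 and 4.22 FPKM against 11.7, 10.8 and 5.47 FPKM, and without high-iron library 7 its log2 fold change was -0.73 and not called. The call of DHODH was also lost without control library 4 (-1.13) or 5 (-1.19). MBL2, a lectin of the complement system, measured 194.3, 121.2 and 22.2 FPKM against 13.1, 36.4 and 18.0 FPKM, and high-iron library 8 lay inside the control range. Each of the calls of MBL2, VLDLR, ABCG1 and KLF4 was lost without at least 1 library, at 1.34 without high-iron library 2 for MBL2, 0.60 without control library 5 for VLDLR, 0.76 without control library 6 for ABCG1 and 1.06 without control library 5 for KLF4.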

How the data were processed

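Poly(A)-selected liver libraries of Wujin pigs were prepared with an unstranded kit, so overlapping genes on opposite strands cannot be told apart. Per the labels and the study's methods, HISAT2 placed the clean reads on Sscrofa11.1, StringTie built the transcripts, and the authors deposited FPKM per library in 1 table. No further scaling was stated. Depth per value is unknown, though the study's read statistics give each high-iron library more mapped reads than any control library. The table names genes only by a serial number, which was read as the place of the gene in the NCBI annotation of Sscrofa11.1, and gene names rest on that reading: all 20660 numbered genes fell on protein-coding genes, against 15031 when shifted by 1, and 5258 of the 25918 genes are new.

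Genes with a mean of at least 0.5 FPKM over the 9 libraries were tested as log2(FPKM + 0.1) in R 4.3.3 with limma 3.58.1, in 1 fit of 3 groups with a trend and 6 residual degrees of freedom. A gene was called at a 2-fold or larger difference with an unadjusted p under 0.05, and Benjamini-Hochberg values are given beside them. A count test was not run, since the authors deposited no counts. Single genes were compared with exact permutation tests, two-sided, in Python 3.11.15. The fit was tested on simulated data. The labels number the libraries as separate samples and say no more of the animals, so p-values measure the spread between these libraries.

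Named genes are the 12 higher and 12 lower called genes of smallest p that have a symbol and no overlap; up to 4 LOC genes in each direction by the same rule; every called list member; HAMP, TFRC, HIF1A and EPO; and cell type markers. BMP6, CPS1, TAT and other list members without a call were picked from their lists after the values were seen. The comparison and the 44 lists were chosen with earlier results of these data known, and 11 older symbols were matched by hand. Alternatives were pseudocounts of 1 and 0.01, no filter or a mean of at least 1, TPM, median-of-ratios and quantile scaling, a fit of 6 libraries, array weights, EIF1AY as a covariate, and leaving out each library. Some items are not reported here.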

Additional observations from a re-analysis of the deposited data

How the results depend on the processing

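No paired analysis was possible because the control libraries (4, 5 and 6) and the high-iron libraries (2, 7 and 8) share no number in their titles. With a pseudocount of 1 the calls fell from 197 to 74 (58 higher and 16 lower) and the called list members from 34 to 21. Without a filter on low FPKM there were 504 calls (404 higher and 100 lower). The higher calls were 98 under median-of-ratios scaling and 82 under quantile normalization, where the lower calls were 59. Array quality weights gave 58 lower calls. With EIF1AY as a covariate there were 151 higher and 41 lower calls, and 13 named genes lost their call. These were ARG1, TFRC, CAPG, CD8A, LYZ, MBL2, ISG15, FADS1, FADS2, ROBO2, SLC44A5, LOC100155195 and LOC110260350. Among the other observations below, TBC1D10C, LOC100525112, LOC102158401, Sus_scrofa_newGene_14558 and Sus_scrofa_newGene_14801 lost theirs too. Leaving out each library in turn gave 206 to 298 calls, 132 to 262 higher and 36 to 80 lower. The most calls, 298 with 262 higher, came without control library 4, and the lower calls were 73, 80 and 74 without control library 5, high-iron library 7 and high-iron library 8. Called list members were 34 to 46 without each library in turn. No named gene that was called changed direction. The calls of ABRACL, SMAD4, EMP3, PAPSS2, PAQR4, LOC396781, LOC110262115, VWF, COL1A1, CLEC4F and TIMP1 held in 16 of 16 alternatives. Why the calls of other genes were lost under some alternatives was not tested. The values carry no counts, so depth limits the low genes to an extent that was not tested.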

Other observations

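Several called genes of white blood cells fall outside the rule for named genes and were picked after their values were seen. CD69, an early activation marker of lymphocytes, measured 1.73, 0.828 and 2.87 FPKM in high-iron libraries 2, 7 and 8 and 0.376, 0 and 0.565 FPKM in control libraries 4, 5 and 6. CST7, a protease inhibitor of cytotoxic and myeloid cells, measured 4.99, 2.78 and 7.39 FPKM against 2.20, 0.434 and 2.39 FPKM. LRMP, a membrane protein of lymphoid cells, measured 3.55, 3.38 and 2.83 FPKM against 0.930, 1.16 and 1.75 FPKM, and its low-iron libraries measured 1.67, 2.14 and 0.647 FPKM. CD72, SAMSN1, DOCK10, JAML, HCST, TBC1D10C and CD83 were also called higher, with log2 fold changes between 1.03 and 1.79. The values of all of these but CD83 did not overlap between the groups. Leaving out single libraries ended the calls of SAMSN1, CD83, HCST, DOCK10, JAML, TBC1D10C and CST7, with values down to 0.91, 0.63, 1.10, 0.67, 0.95, 0.81 and 1.00 over the left-out libraries, and median-of-ratios scaling ended those of SAMSN1, CD83, DOCK10 and TBC1D10C.

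A pair of genes of the CYP2J family, which oxidize fatty acids, were called higher and were likewise chosen with the values in view. LOC100525112 measured 23.9, 22.2 and 42.1 FPKM against 0.595, 3.44 and 11.8 FPKM, and LOC100524940 measured 7.41, 4.73 and 22.5 FPKM against 3.73, 3.23 and 3.78 FPKM. Without high-iron library 8 the log2 fold change of LOC100524940 was 0.72 in place of 1.35 and its call was lost, and the call of LOC100525112 was lost without the same library or without control library 4. They are near copies on chromosome 6, and how the counting divided shared reads is not given in the sources used here.

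Unnamed transcripts were among the most abundant called features. Sus_scrofa_newGene_14558 measured 4800.1, 385.3 and 886.7 FPKM against 612.4, 381.5 and 66.6 FPKM, and Sus_scrofa_newGene_14801 measured 7887, 753.5 and 1608 FPKM against 1153, 567.2 and 545.5 FPKM. High-iron library 2 was far above every other library for both, whose calls were lost without it, and for LOC102158401, annotated as like a collagen alpha-1(I) chain, which measured 1342 FPKM there. All 3 low-iron libraries were below all control libraries for Sus_scrofa_newGene_14801, at 139.4, 202.0 and 323.6 FPKM. Sus_scrofa_newGene_14686 measured 62.3, 33.3 and 43.1 FPKM against 10.3, 11.6 and 9.01 FPKM, a log2 difference of 2.12 (SE 0.27, adjusted p = 0.06 by limma), and Sus_scrofa_newGene_10550 measured 28.5, 19.0 and 27.5 FPKM against 13.2, 9.73 and 8.30 FPKM. Both calls held in 16 of 16 alternatives.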
